A study of Rattus norvegicus with 28 samples.

Results

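The dopamine D1 receptor (Drd1), the dopamine D2 receptor (Drd2) and the adenosine A2A receptor (Adora2a) were followed by their Ensembl identifiers, ENSRNOG00000023688, ENSRNOG00000008428 and ENSRNOG00000001302. All 3 were present among the 15635 genes of the count table. They were chosen by name, with earlier results of these data known. The libraries came from young adult male Sprague-Dawley rats, 14 from the nucleus accumbens (NAc) and 14 from the medial prefrontal cortex (mPFC). Each region held 7 libraries with lenti-pCDH-H3.3Q5A, a lentivirus carrying histone H3.3 with the dopamine-modifiable glutamine replaced by alanine, and 7 with lenti-pCDH-H3.3WT, the wild-type histone. Every animal, controls included, had taken cocaine by self-administration in extended sessions over 10 days before receiving the virus, was then kept without the drug for 30 days while the virus was expressed, and was finally tested for seeking on cocaine cues. The groups therefore differ in region and virus, and hold no drug-naive or uninjected animals. The tissue was dissected whole, so transduced and untransduced cells were sequenced together, and the labels do not name the promoter of the transgene.

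These receptors set how the principal cells of the striatum, the spiny projection neurons, read dopamine. Drd1 couples to stimulatory G proteins, raises cAMP and marks the neurons of the direct pathway. Drd2 couples to inhibitory G proteins and lowers cAMP in the neurons of the indirect pathway, where Adora2a, a receptor for adenosine that raises cAMP, is made in the same cells and opposes it. Drd2 is also made by cholinergic interneurons. In the prefrontal cortex Drd1 and Drd2 are found in pyramidal cells and interneurons at lower levels, while Adora2a is chiefly a striatal transcript.

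The 250 bases before the annotated start of Drd2 are shown as the promoter of a receptor that differed between the regions. They were taken from RefSeq on assembly GRCr8, 5′ to 3′ on the plus strand, at chr8:58605153-58605402. The counts were made on build rn6, so these positions do not apply to the count table. Capitals mark GC boxes.
Drd2: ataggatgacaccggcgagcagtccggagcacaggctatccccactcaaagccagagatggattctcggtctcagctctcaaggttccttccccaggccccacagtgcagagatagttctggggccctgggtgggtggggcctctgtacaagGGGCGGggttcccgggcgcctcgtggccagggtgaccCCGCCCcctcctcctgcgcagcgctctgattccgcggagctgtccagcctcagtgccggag

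The Drd2 window was 66.0% G and C, where the median of all 33469 windows of that length in the table was 51.2%. It held 2 GC boxes (GGGCGG, on either strand), which begin 98 and 61 bases before the start, and a GC box was present in 30.5% of all windows. It held no CCAAT (34.02% of all windows), TATAAA (12.9%), cAMP response element TGACGTCA (1.59%) or its core TGACG (18.2%), each searched on both strands, the core lying within the full element. A match is a description of these letters and not evidence of a bound site. The start that the table gives for Drd1 lies inside the span of that gene, so its window is not shown.

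The libraries held 15448673 to 51714324 counts, and the receptors were well covered in all of them. In NAc, Drd1 had 2060 to 11076 counts per library, Drd2 4864 to 16836 and Adora2a 9509 to 29000. In mPFC the lowest counts were 219 for Drd1, 198 for Drd2 and 107 for Adora2a. The pairing of the 3 identifiers with the receptors was taken as given and not checked against an annotation. No other identifier in the table could be paired with a symbol. Markers of other cell types and the other genes of dopamine and adenosine signalling were therefore not analysed here, nor was the H3.3 transgene. Libraries were described instead by a region score. It is the mean log2 CPM of 255 genes higher in NAc minus that of 276 genes higher in mPFC, with the receptors left out. These genes were picked from the same libraries, and whether the score follows tissue makeup was not tested. CPM is the usual unit of a gene's counts relative to the size of its library, here scaled with TMM factors. The score ran from 2.63 to 4.29 in NAc H3.3Q5A and 2.04 to 3.98 in NAc H3.3WT, and from −2.64 to −1.03 in mPFC H3.3Q5A and −2.60 to −1.85 in mPFC H3.3WT. In mPFC, H3.3Q5A replicate 34 (−1.03) and H3.3WT replicate 11 (−1.85) had the highest scores of their groups, and mPFC results are also given without them.

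All 3 receptors were higher in NAc than in mPFC under either virus, and the excess was smallest for Drd1 and largest for Adora2a. Drd1, the receptor of the direct pathway, was at 177 CPM in the lowest, 247 in the median and 276 in the highest NAc H3.3Q5A library, against 6.91, 15.6 and 37.6 CPM in mPFC H3.3Q5A. With H3.3WT it was at 141, 220 and 256 CPM in NAc, against 11.9, 16.8 and 29.2 CPM in mPFC. Every NAc library thus lay above every mPFC library of the same virus.

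Drd2, the inhibitory dopamine receptor of the indirect pathway, was at 257, 337 and 742 CPM (lowest, median and highest) in NAc H3.3Q5A, against 6.72, 9.52 and 45.6 CPM in mPFC H3.3Q5A. With H3.3WT it was at 242, 287 and 340 CPM in NAc, against 6.87, 9.82 and 20.8 CPM in mPFC. Adora2a, its adenosine-binding partner in the same neurons, was at 428, 544 and 1321 CPM in NAc H3.3Q5A, against 5.55, 6.68 and 46.7 CPM in mPFC H3.3Q5A. With H3.3WT Adora2a was at 384, 456 and 652 CPM in NAc, against 4.91, 5.60 and 23.7 CPM in mPFC. The groups did not overlap for either gene, and in mPFC replicates 34 and 11 were the highest libraries of their groups for all 3 receptors. In whole tissue, fewer cells of a type and less RNA per cell cannot be told apart.

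**Figure D1:**
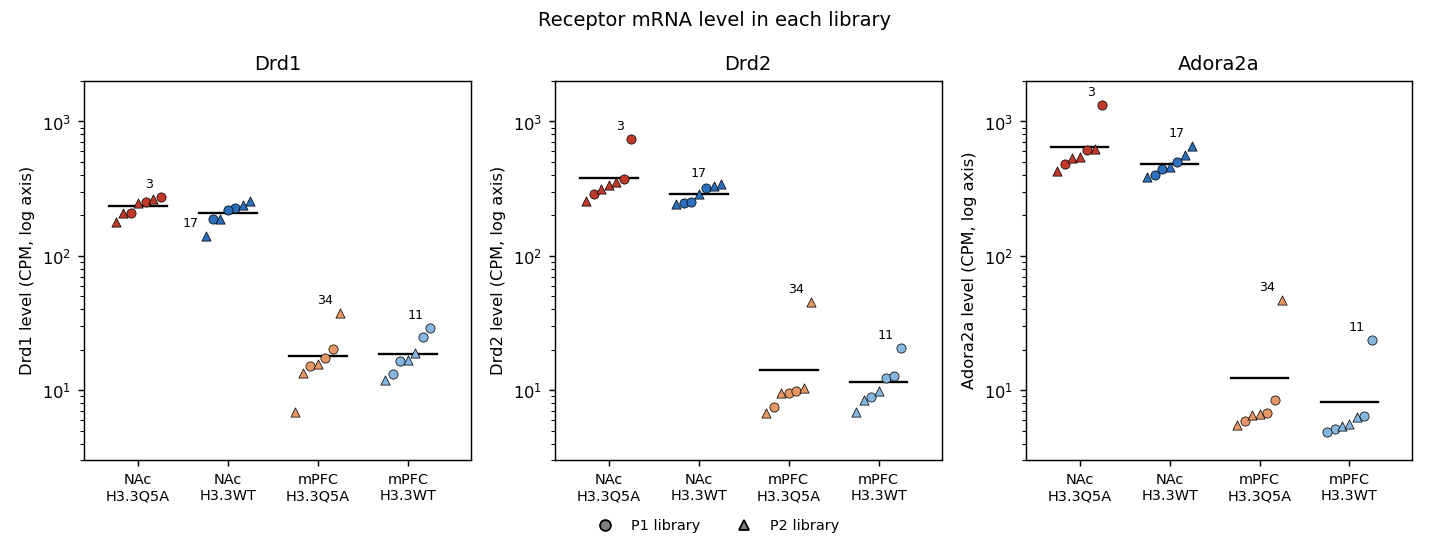
Level of each receptor in every library, in CPM on a log axis, with the libraries of a group ordered by level. Circles are P1 and triangles P2 libraries, the black line is the arithmetic mean of 7 libraries, and numbers mark NAc H3.3Q5A replicate 3, NAc H3.3WT replicate 17, mPFC H3.3Q5A replicate 34 and mPFC H3.3WT replicate 11. The NAc libraries lie above the mPFC libraries for all 3 receptors, and the groups of H3.3Q5A and H3.3WT overlap within each region.

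With H3.3Q5A, edgeR put the log2 fold change between NAc and mPFC at 3.69 (SE 0.26) for Drd1, 4.73 (SE 0.39) for Drd2 and 5.70 (SE 0.52) for Adora2a. With H3.3WT they were 3.50 (SE 0.26), 4.68 (SE 0.40) and 5.88 (SE 0.53) in the same order. The edgeR quasi-likelihood test gave adjusted p-values of 7.96e-12, 1.48e-10 and 8.99e-10 with H3.3Q5A, and of 3.22e-11, 3.23e-10 and 1.09e-09 with H3.3WT. All 3 receptors thus met the call for the NAc direction (adjusted p under 0.05, log2 difference 1 or more), as did 5.87% of the 15635 genes with H3.3Q5A and 5.58% with H3.3WT. Ranked by log2 fold change from the top, Adora2a was 10th, Drd2 28th and Drd1 64th of the 15635 genes with H3.3Q5A, and 11th, 30th and 68th with H3.3WT. Without mPFC replicates 34 and 11 the fold changes of Adora2a were 6.61 with H3.3Q5A and 6.44 with H3.3WT.

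Whether the excess in NAc differed between the receptors was tested on ratios of counts within a library, which do not depend on depth or scaling. Gene lengths differ, so the ratio itself does not say which receptor has more transcripts, and only its change between groups is read. The log2 Drd1/Drd2 ratio averaged −0.64 ± 0.35 in NAc and 0.54 ± 0.52 in mPFC with H3.3Q5A, and −0.48 ± 0.36 in NAc and 0.74 ± 0.25 in mPFC with H3.3WT (SD, n = 7 each). Drd2 therefore exceeded Drd1 in its NAc over mPFC change by 1.17 with H3.3Q5A and 1.22 with H3.3WT on the log2 scale. The log2 Adora2a/Drd2 ratio averaged 0.76 ± 0.05 in NAc and −0.36 ± 0.31 in mPFC with H3.3Q5A, and 0.74 ± 0.12 in NAc and −0.64 ± 0.55 in mPFC with H3.3WT. Adora2a exceeded Drd2 in turn, by 1.11 with H3.3Q5A and 1.38 with H3.3WT. The log2 Drd1/Adora2a ratio averaged −1.39 ± 0.39 in NAc and 0.89 ± 0.74 in mPFC with H3.3Q5A, and −1.22 ± 0.44 in NAc and 1.38 ± 0.64 in mPFC with H3.3WT. Each of these 6 differences between regions had an exact permutation p of 0.000583, the smallest that 3432 divisions of 14 libraries allow, and an adjusted p of 0.00146 over 15 tests of ratios. Among P1 or P2 libraries alone all 6 kept their direction, at sizes from 0.71 to 2.91. None passed the adjusted threshold there, where the small groups limit how low the exact p-value can be.

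**Figure D2:**
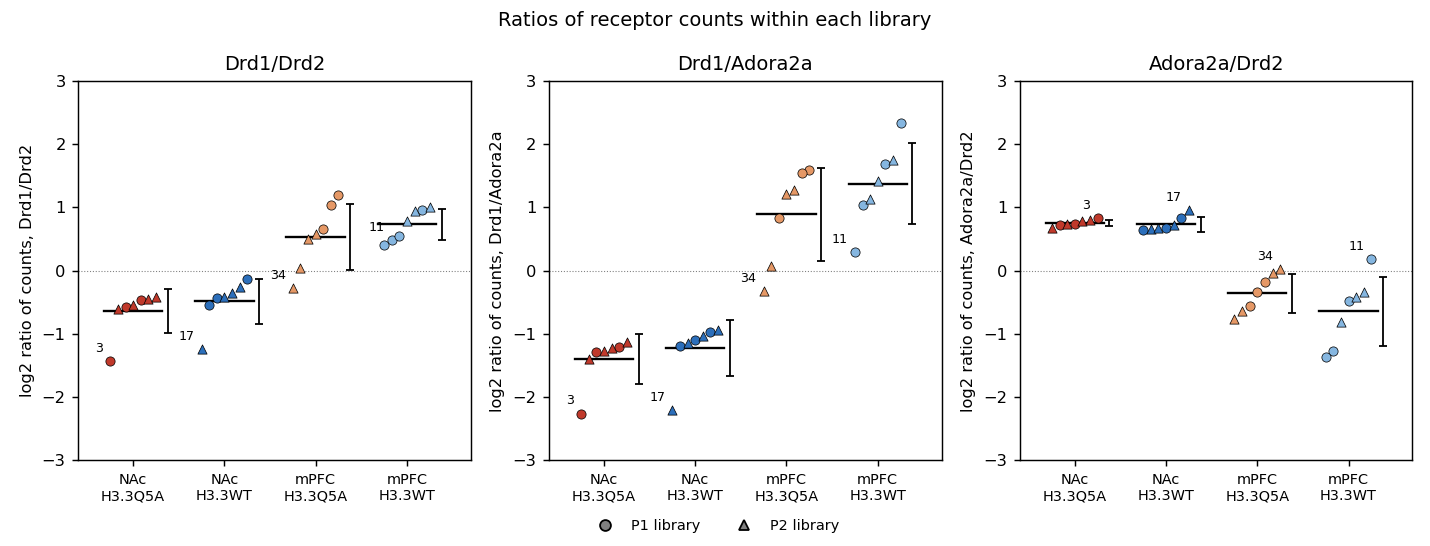
Log2 ratio of counts within each library for the 3 pairs of receptors, with the libraries of a group ordered by value. Circles are P1 and triangles P2 libraries, black lines are means and bars 1 SD (n = 7), and numbers mark the same 4 libraries as in the plot of levels. Drd1/Drd2 and Drd1/Adora2a lie below 0 in all NAc libraries, and NAc H3.3Q5A replicate 3 and NAc H3.3WT replicate 17 are the lowest of their groups, while Adora2a/Drd2 spans 0.64 to 0.97 across the 14 NAc libraries.

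The virus comparison in NAc asks whether H3.3Q5A alters the receptors there. The indirect pathway receptors had higher means with H3.3Q5A, but the libraries of both viruses overlapped and neither gene passed the test. Drd2 averaged 382 ± 164 CPM with H3.3Q5A and 289 ± 42.8 CPM with H3.3WT (SD, n = 7 each), with 6 of 7 H3.3Q5A libraries above the H3.3WT median. Adora2a averaged 650 ± 304 CPM with H3.3Q5A and 485 ± 95.4 CPM with H3.3WT, also with 6 of 7 above the median. Drd1 averaged 234 ± 36.02 CPM with H3.3Q5A and 208 ± 38.8 CPM with H3.3WT, with 4 of 7 above the median.

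The log2 fold changes in NAc were 0.38 (95% confidence interval −0.05 to 0.80) for Drd2, 0.40 (−0.08 to 0.87) for Adora2a and 0.17 (−0.11 to 0.45) for Drd1. The adjusted p-values (edgeR) were 0.665, 0.668 and 0.731. The unadjusted p-values were 0.0791, 0.0964 and 0.226. None of the receptors was called, as was 0% of the 15315 genes tested, of which 1200 (7.84%) had an unadjusted p under 0.05. DESeq2 called 9 genes, and quality-weighted limma voom called 57, in neither case a receptor. With voom the unadjusted p-values were 0.0232 for Drd2 and 0.0190 for Adora2a (adjusted p = 0.178 and 0.166). In that fit 3099 of the 15315 genes had an unadjusted p under 0.05.

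The size of the difference for the indirect pathway pair depended on which library was left out. NAc H3.3Q5A replicate 3 held 742 CPM of Drd2 and 1321 CPM of Adora2a, where the next highest library of its group held 376 and 619 CPM. Its region score, 4.29, was the highest of the 14 NAc libraries. Without it the fold changes were 0.15 for Drd2 (adjusted p = 0.677) and 0.14 for Adora2a (adjusted p = 0.708). Without NAc H3.3WT replicate 17 they were 0.43 for Drd2 and 0.50 for Adora2a (edgeR adjusted p = 0.460 and 0.447). The interval of Adora2a was then 0.03 to 0.97. With each of the 14 NAc libraries left out in turn, Drd2 ran from 0.15 to 0.44 and Adora2a from 0.14 to 0.50. The interval of Drd2 lay above 0 without H3.3Q5A replicate 2 (0.02 to 0.87) or replicate 19 (0.005 to 0.88). The edgeR adjusted p-values of Drd2 were then 0.601 and 0.539. Replicate 3 is a P1 library, a mark in the sample titles whose meaning the labels do not state. Among P1 libraries alone the fold changes were 0.77 for Drd2 and 0.85 for Adora2a, and among P2 libraries alone 0.06 and 0.04. For Drd1 they were 0.22 and 0.12, and 0.09 without NAc H3.3WT replicate 17. In P1 libraries the interval of Adora2a was 0.001 to 1.70 (edgeR adjusted p = 0.436).

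The mean region score was also higher with H3.3Q5A, at 3.61 ± 0.52 against 2.99 ± 0.69 with H3.3WT. The libraries overlapped and the difference did not pass 0.05 (exact permutation p = 0.0886). With the score as a term in the edgeR model, the fold changes became 0.07 for Drd2, 0.05 for Adora2a and 0.07 for Drd1. The score is built from genes of the same libraries, and a receptor change that moved together with it would be removed as well.

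**Figure D3:**
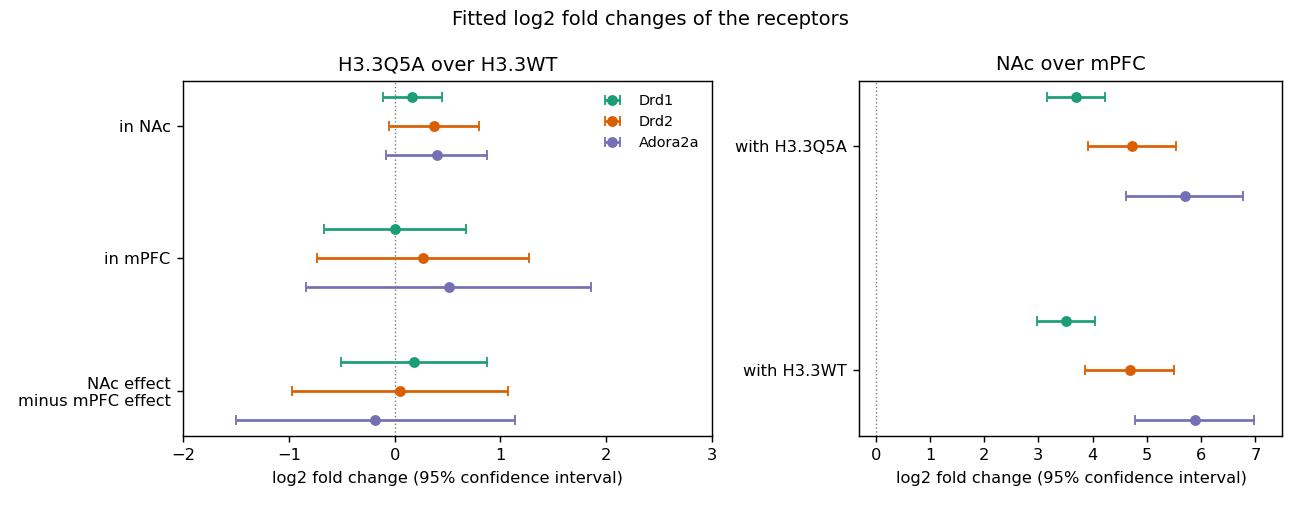
Fitted log2 fold changes with 95% confidence intervals from edgeR, on the left for H3.3Q5A over H3.3WT in each region and the difference between these effects, on the right for NAc over mPFC under each virus. Green is Drd1, orange Drd2 and purple Adora2a. All intervals on the left include 0, and those on the right lie between 2.97 and 6.98.

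In mPFC the receptors were lower and more scattered, and no difference between the viruses was detected. Drd1 averaged 18.05 ± 9.55 CPM with H3.3Q5A and 18.7 ± 6.21 CPM with H3.3WT (SD, n = 7 each). Drd2 averaged 14.2 ± 13.9 CPM with H3.3Q5A and 11.4 ± 4.63 CPM with H3.3WT. Adora2a averaged 12.4 ± 15.2 CPM with H3.3Q5A and 8.21 ± 6.84 CPM with H3.3WT. For each gene the range of the H3.3Q5A libraries overlapped that of the H3.3WT libraries.

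The log2 fold changes in mPFC were −0.0009 (95% confidence interval −0.67 to 0.67) for Drd1, 0.27 (−0.73 to 1.27) for Drd2 and 0.51 (−0.84 to 1.86) for Adora2a. The adjusted p-values (edgeR) were 0.9995, 0.853 and 0.788. None was called, as was 0% of the 15485 genes tested, of which 1221 (7.89%) had an unadjusted p under 0.05. DESeq2 called 8 genes, and quality-weighted limma voom called 0. DESeq2 gave no p-value for Drd2 and Adora2a here. The intervals are wide: only 0.659% of tested genes had a larger standard error than Adora2a.

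The library with the highest region score was also the highest in all 3 receptors. mPFC H3.3Q5A replicate 34 held 37.6 CPM of Drd1, 45.6 CPM of Drd2 and 46.7 CPM of Adora2a, where the next highest library of its group held 20.4, 10.4 and 8.43 CPM. mPFC H3.3WT replicate 11 held 29.2, 20.8 and 23.7 CPM, where the next highest held 24.8, 12.7 and 6.43 CPM. Outside these libraries Adora2a stayed between 4.91 and 8.43 CPM in mPFC. Without replicate 34 all 3 fold changes were below 0, at −0.31 for Drd1, −0.28 for Drd2 and −0.22 for Adora2a. Without both libraries they were −0.21, −0.12 and 0.24, and the interval of Adora2a narrowed to −0.03 to 0.51. None of these passed the test (edgeR adjusted p-values of 0.769 to 0.875 without replicate 34 and of 0.770 to 0.851 without both). By the P mark of the titles, Drd2 was at −0.60 among P1 and 1.15 among P2 libraries, and Adora2a at −0.51 and 1.55, with replicate 34 a P2 library. With the region score as a term the fold changes were −0.19 for Drd1, −0.07 for Drd2 and 0.10 for Adora2a.

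The title of the study sets the regions against each other, so the difference between the virus effects was tested directly. The NAc effect minus the mPFC effect was 0.18 for Drd1 (95% confidence interval −0.51 to 0.88), 0.05 for Drd2 (−0.97 to 1.07) and −0.18 for Adora2a (−1.50 to 1.14). The adjusted p-values (edgeR) were 0.961, 0.996 and 0.99. No receptor was called, as was 0% of the 15635 genes, 822 of which (5.26%) had an unadjusted p under 0.05. DESeq2 called 0 genes, and quality-weighted limma voom called 9. Without mPFC H3.3Q5A replicate 34 the values were 0.49, 0.66 and 0.63, at adjusted p-values of 0.868 to 0.905. Among P1 libraries alone they were 0.47, 1.38 and 1.37, and among P2 libraries alone −0.12, −1.08 and −1.49.

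The ratios of the receptors within a library were compared between viruses as well. In NAc the mean log2 Drd1/Adora2a ratio was lower by 0.17 with H3.3Q5A (SE 0.22, exact permutation p = 0.456, adjusted p = 0.566), and the log2 Drd1/Drd2 ratio by 0.16 (SE 0.19, exact p = 0.44, adjusted p = 0.566). The log2 Adora2a/Drd2 ratio differed by 0.02 (SE 0.05, exact p = 0.74, adjusted p = 0.792). In mPFC the differences were −0.49 (SE 0.37, adjusted p = 0.448) for Drd1/Adora2a, −0.20 (SE 0.22, adjusted p = 0.566) for Drd1/Drd2 and 0.28 (SE 0.24, adjusted p = 0.474) for Adora2a/Drd2 by the exact permutation test. With 1 library left out at a time these ran from −0.67 to −0.29 for Drd1/Adora2a, from −0.31 to −0.066 for Drd1/Drd2 and from 0.16 to 0.42 for Adora2a/Drd2. With replicates 34 and 11 both left out they were −0.47, −0.11 and 0.36 (exact permutation adjusted p = 0.277, 0.694 and 0.277). The Drd1/Drd2 difference in NAc ran from −0.28 without H3.3WT replicate 17 to −0.024 without H3.3Q5A replicate 3. The differences between the regions in these virus effects had adjusted p-values of 0.491 to 0.875. Without NAc H3.3WT replicate 17 the Drd1/Adora2a difference in NAc was −0.34 (exact permutation p = 0.00816, adjusted p = 0.0175), and without NAc H3.3Q5A replicate 3 it was −0.03 (adjusted p = 0.968). Among single libraries left out, the call therefore turned on whether replicate 17 was kept. Replicates 3 and 17 were not left out together for the ratios, so each of these values still holds the other library.

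Those libraries stood apart from the other NAc libraries of either virus. The log2 Drd1/Adora2a ratio was −2.26 in NAc H3.3Q5A replicate 3, where the others of its group ran from −1.39 to −1.13. It was −2.21 in NAc H3.3WT replicate 17, where the others ran from −1.19 to −0.93. The levels reached this in different ways. Replicate 3 had Drd1 at 276 CPM, the highest of its group, beside the raised Drd2 and Adora2a. Its TMM factor was 0.856, the lowest of the 28 libraries, which raises its CPM. The rank of Drd1 in this library depends on that scaling. Replicate 17 had Drd1 at 141 CPM, the lowest of all NAc libraries, with Adora2a at 652 CPM, the highest of its group. Replicate 17 was also the smallest library, at 15448673 counts, and replicate 3 held 19977284. The counting error of the ratio was 0.04 on the log2 scale in replicate 17 and 0.02 in replicate 3. Whether depth had a part in the ratio was not tested.

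Across the NAc libraries the indirect pathway receptors varied together. The log2 Adora2a/Drd2 ratio had an SD of 0.05 in H3.3Q5A and 0.12 in H3.3WT libraries, where the counting error was 0.02 in the median library. The log2 Drd1/Drd2 ratio had SDs of 0.35 and 0.36. As deviations from the mean of their virus group, Drd2 and Adora2a had a Pearson correlation of 0.978 and a Spearman correlation of 0.952 over 14 libraries (permutation p = 1e-05 for both, the smallest that 100000 permutations give, adjusted p = 0.00012 over 12 relations). Without the 2 libraries farthest from the median of Drd2 the Pearson correlation was 0.913, and it was 0.99 within P1 and 0.941 within P2 libraries.

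Drd1 followed the pair less closely in NAc. Its Pearson correlation was 0.439 with Drd2 (permutation p = 0.115, adjusted p = 0.138) and 0.323 with Adora2a (permutation p = 0.261, adjusted p = 0.284), with Spearman correlations of 0.538 and 0.534 (permutation p = 0.0504 and 0.0523, adjusted p = 0.0784 for both). Leaving out the 2 libraries farthest from the median of Drd1, NAc H3.3WT replicate 17 and NAc H3.3Q5A replicate 19, gave Pearson correlations of 0.666 and 0.679 (permutation adjusted p = 0.0136 and 0.0112). Within P1 libraries they were 0.748 and 0.785, and within P2 libraries 0.351 and 0.0393. The difference between these correlations and that of Drd2 with Adora2a was not tested.

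The region score was related to the indirect pathway receptors in NAc, with Pearson correlations of 0.608 for Drd2 and 0.647 for Adora2a (permutation adjusted p = 0.0246 and 0.0153) and Spearman correlations of 0.714 and 0.626 (adjusted p = 0.0187 and 0.039). For Drd1 they were 0.226 and 0.266 (permutation adjusted p = 0.438 and 0.365). Without the 2 libraries farthest from the median score, the Pearson correlation of Drd2 was 0.734 and that of Adora2a 0.735, with Drd1 at 0.0908. The Spearman correlations were then 0.664 for Drd2 and 0.65 for Adora2a, which no longer passed (permutation adjusted p = 0.052 for both). The Pearson correlations of Drd2 and Adora2a were 0.459 and 0.482 within P1 (n = 6) and 0.96 and 0.903 within P2 libraries (n = 8). That of Drd1 was 0.237 within P1 and 0.296 within P2 libraries.

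**Figure D4:**
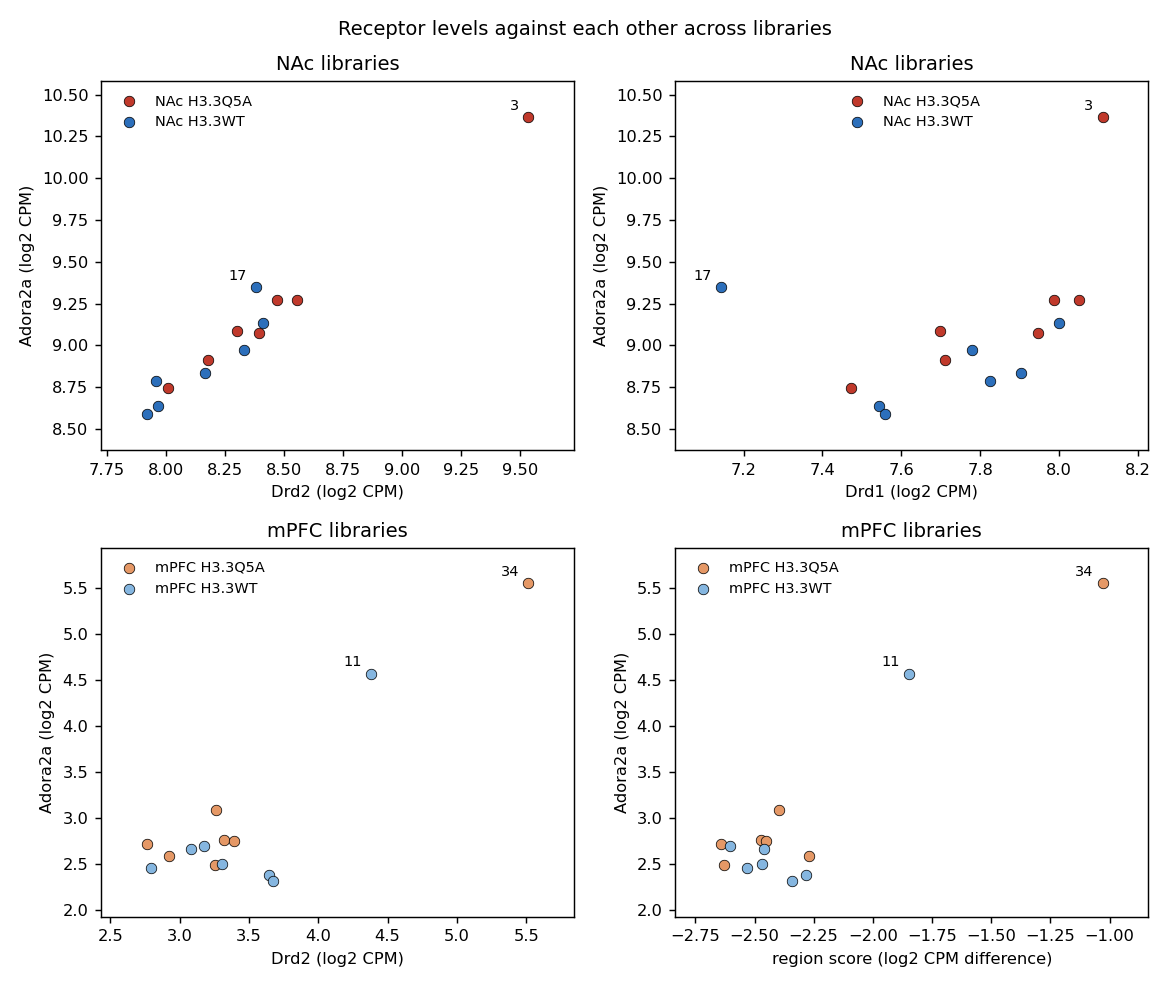
Log2 CPM of Adora2a against Drd2 and against Drd1 in the 14 NAc libraries (top), and against Drd2 and the region score in the 14 mPFC libraries (bottom), without centring on group means. Each point is 1 library, coloured by virus, and numbers mark replicates 3, 17, 34 and 11. In NAc the points of Drd2 and Adora2a fall close to a line, and replicate 17 lies away from the others against Drd1. In mPFC replicates 34 and 11 lie apart from the other 12 libraries.

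In mPFC the relation of Drd2 and Adora2a rested on 2 libraries. The Pearson correlation was 0.89 over all 14 (permutation adjusted p = 0.00618), but the Spearman correlation was 0.292 (permutation adjusted p = 0.365). Without replicates 34 and 11, the libraries farthest from the median of Drd2, the Pearson correlation was −0.162. Adora2a and the region score behaved in the same way, at 0.913 over all libraries and −0.14 without those replicates. Drd1 with Adora2a was at 0.687 over all (Spearman 0.262), 0.546 without H3.3Q5A replicates 34 and 37, the farthest from the median of Drd1 (permutation adjusted p = 0.11), and −0.132 without replicates 34 and 11. Drd1 with Drd2 had a Pearson correlation of 0.84 over all libraries (permutation adjusted p = 0.0003) and a Spearman correlation of 0.745 (adjusted p = 0.0172). Without replicates 34 and 37 these were 0.775 and 0.573 (permutation adjusted p = 0.0112 and 0.0943). Without replicates 34 and 11 they were 0.687 and 0.573 (permutation adjusted p = 0.0444 and 0.0937), so the Spearman correlation did not pass in either case. Against the region score, Drd1 had a Pearson correlation of 0.811 and Drd2 of 0.94 over all libraries. Without replicates 34 and 11 these were 0.661 (permutation adjusted p = 0.0444) and 0.454 (permutation adjusted p = 0.236). Within P1 and P2 libraries the correlation of Drd1 with Drd2 was 0.808 and 0.949, and that of Drd2 with Adora2a 0.79 and 0.955, each set holding 1 of the replicates 11 and 34.

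The transcripts whose log2 CPM was most like that of each receptor were listed as a description, since all share the scaling of the same libraries. Here log2 CPM was not centred on the virus group means, so correlations between receptors differ from those given above. Over the 14 NAc libraries and 14189 genes at a mean of at least 1 CPM, Adora2a was 2nd among the genes most correlated with Drd2 (Pearson correlation 0.982), behind ENSRNOG00000049580 (0.984). Drd2 was 3rd for Adora2a, behind ENSRNOG00000049580 (0.985) and ENSRNOG00000033893 (0.985). For Drd1 the closest were ENSRNOG00000004048 (0.958) and ENSRNOG00000014264 (0.95), while Drd2 ranked 3030th (0.517) and Adora2a 3896th (0.416). Over the 14 mPFC libraries and 14307 genes, Adora2a ranked 21st for Drd2 (0.88) and Drd2 26th for Adora2a. There the closest to Drd2 were ENSRNOG00000003800 (0.945) and ENSRNOG00000028404 (0.945), and the closest to Adora2a were ENSRNOG00000024061 (0.963) and ENSRNOG00000017712 (0.959). All 4 belong to the NAc-high genes of the region score. The 3rd and 4th closest to Drd2 belong to neither list, and the 5th is NAc-high. The 3rd, 4th and 5th closest to Adora2a are all NAc-high. The closest to Drd1 in mPFC were ENSRNOG00000045920 (0.919) and ENSRNOG00000017731 (0.906), which belong to neither list. When replicates 34 and 11 were left out these neighbours were different: over 12 libraries and 14302 genes, Adora2a ranked 10474th for Drd2 and Drd2 10073rd for Adora2a (Pearson correlation −0.26 between them), and none of the 5 genes closest to Drd2 or to Adora2a was on the NAc-high list.

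No difference between P2 and P1 libraries was detected for the receptors. The log2 fold changes of P2 over P1 in NAc were −0.08 (SE 0.13) for Drd1, −0.22 (SE 0.20) for Drd2 and −0.21 (SE 0.22) for Adora2a, each at an edgeR adjusted p of 0.999. In mPFC they were −0.16 (SE 0.31), 0.16 (SE 0.47) and 0.24 (SE 0.63), at adjusted p-values of 0.926 to 0.954.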

How the data were processed

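Polyadenylated RNA was sequenced in 28 libraries, with 7 in every group. RNA was, per the labels' protocols, extracted with Trizol, cleaned on RNeasy Micro columns and prepared with a TruSeq RNA V2 kit that keeps no strand information. The submitters' processing notes name DESeq2 1.6.3, featureCounts 2.0.1, HISAT2 2.1.0 and rn6 without saying what each did. The authors deposited whole-number counts for Ensembl genes, not normalized. Each of the 15635 genes reaches 10 counts in 14 libraries or more.

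Groups, replicate numbers and the P mark were read from the sample titles. The labels name no animal for a library, and the p-values reflect only how libraries vary. The 3 receptors and the lists were chosen with earlier results of these data known. Virus effects were fitted on the 14 libraries of a region, and region and interaction contrasts on all 28, with the P mark as a term, with edgeR 4.0.16 (R 4.3.3) and its quasi-likelihood test, after TMM scaling and filterByExpr. Adjustment was by Benjamini and Hochberg over all genes tested. DESeq2 1.42.0 and limma 3.58.1 (voom with sample quality weights) were alternatives. SE and intervals are from the same fit. Log2 CPM used a prior count of 2, and ratios an offset of 0.5 count. Region lists took genes past an adjusted p of 0.05 whose log2 difference over both viruses was 2 or more. Exact permutation tests (two-sided) were used for ratios, and 100000 permutations for correlations. Named transcripts are the receptors and the 2 genes most correlated with each in each region. All 28 libraries were kept; no 2 libraries of a group agreed within sampling noise (chi-square over its degrees of freedom 7.56 or more). The fits were also run on simulated counts with known changes, in which no library was set apart from its group. That run cannot speak to the libraries that stood apart here. The RefSeq gene table (GRCr8) matched 0 of the identifiers, and the promoter table had entries for 2 of the 3 receptors, not Adora2a.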

Additional observations from a re-analysis of the deposited data

Results flagged for a closer look

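In each group of 7 libraries, 7 measures (the log2 CPM of the 3 receptors, their 3 log2 ratios and the region score) were searched for a library far from the others, by the gap to its nearest neighbour as a share of the range. Of 28 such sets 11 held one, where chance marks about 1 in 20; the measures of a library are not independent of each other.

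NAc H3.3Q5A replicate 3 was the highest of its group in Drd2, at 9.54 log2 CPM with the next at 8.55, and in Adora2a, at 10.37 with the next at 9.27. It was the lowest in log2 Drd1/Drd2, at −1.43 with the next at −0.60, and in log2 Drd1/Adora2a, at −2.26 with the next at −1.39. NAc H3.3WT replicate 17 was the lowest of its group in log2 Drd1/Drd2, at −1.24 with the next at −0.55, and in log2 Drd1/Adora2a, at −2.21 with the next at −1.19.

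mPFC H3.3Q5A replicate 34 was the highest of its group in Drd2, at 5.51 log2 CPM with the next at 3.39, in Adora2a, at 5.55 with the next at 3.09, and in the region score, at −1.03 with the next at −2.27. mPFC H3.3WT replicate 11 was the highest of its group in Adora2a, at 4.57 log2 CPM with the next at 2.70, and in the region score, at −1.85 with the next at −2.28.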

How the results depend on the processing

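All 3 receptors stayed called as higher in NAc, and none was called for the virus or the interaction, under every alternative that gave a p-value: DESeq2 size factors, DESeq2, limma voom with sample quality weights, no filter, no P term, P1 or P2 libraries alone, each library left out, and the pairs of libraries that stood apart left out (for NAc replicates 3 and 17 this was chosen after seeing the data). Signs that turned round were all of uncalled values. In mPFC, Drd1 was at 0.25 in P2 libraries; Drd2 was at −0.27 with voom, −0.60 in P1 libraries, −0.12 without replicates 34 and 11 and −0.066 with the region score as a term; Adora2a was at −0.51 in P1 libraries. The interaction of Drd1 was −0.12 in P2 libraries, that of Drd2 −1.08 in P2 libraries and −0.14 without NAc replicates 3 and 17, and that of Adora2a 0.20 with voom, 1.37 in P1 libraries and 0.17 without mPFC replicates 34 and 11. With each library left out, mPFC values ran from −0.31 to 0.11 for Drd1, −0.28 to 0.46 for Drd2 and −0.22 to 0.99 for Adora2a, and interactions from −0.15 to 0.66 for Drd2 and −0.65 to 0.63 for Adora2a. The causes were not tested.

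Of 15 ratio tests, 6 passed, and 6 to 7 with each library left out. Among P1 and P2 libraries alone 0 passed. Comparisons of groups have only 20 to 70 divisions there, which limits how low the p-value can be. The interactions have 700 and 2450 divisions, and their exact permutation p-values ran from 0.0343 to 0.537 before adjustment. Ratio differences between viruses that turned round were, in P1 libraries, Drd1/Drd2 in mPFC (0.36) and the interactions of Drd1/Drd2 (−0.81) and Drd1/Adora2a (−0.49), and in P2 libraries, Drd1/Drd2 (0.067), Drd1/Adora2a (0.072) and Adora2a/Drd2 (−0.0054) in NAc. The Drd1/Drd2 interaction was −0.048 without mPFC replicates 34 and 11, and −0.089 to 0.18 with each library left out. Correlations in mPFC turned to −0.162 for Drd2 with Adora2a and −0.14 for the region score with Adora2a without the 2 farthest libraries, which were replicates 34 and 11. Without replicates 34 and 11 in every mPFC relation (chosen after seeing the data), Drd1 with Adora2a turned to −0.132, and 5 of 12 relations passed in place of 9. No paired analysis was possible because the groups compared share at most 1 replicate number.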
